A study of Mus musculus with 9 samples.

Results

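The enzymes that turn arachidonic acid into prostaglandins and leukotrienes were examined in mouse liver as 10 genes chosen by name: Ptgs1, Ptgs2, Ptges, Ptgds, Ptgis and Tbxas1 of the cyclooxygenase route, and Alox5, Alox5ap, Lta4h and Ltc4s of the lipoxygenase route. Of these 10 genes, 9 were read by 15 probe sets, out of 18193 genes named on the arrays. No probe set was matched to Ptgs1, the constitutive cyclooxygenase, which is not analysed here. Each gene is represented by its brightest probe set, the one with the highest mean over the arrays, and a gene with a mean log2 value under 6 is called dim, since background makes up more of so low a signal. By this measure 6 of the 9 genes were dim (Tbxas1, Ptgis, Alox5, Ltc4s, Ptges and Ptgs2) and 3 were not (Lta4h, Alox5ap and Ptgds). The gene just above the limit was Ptgds, with a mean of 6.15, and the gene just below it was Tbxas1, with a mean of 5.56.

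Livers came from 9 female C57BL/6J mice, with 3 controls that received no antibiotic, 3 mice given amoxicillin trihydrate (0.167 mg/mL, for 25 mg/kg/day) and 3 given tylosin tartrate (0.333 mg/mL, for 50 mg/kg/day). The pulsed antibiotic treatment (PAT) was given in drinking water in 3 courses, on days 10 to 15, 28 to 31 and 37 to 40 of life, and all groups, controls included, ate high-fat chow afterwards. The age at collection is 22 weeks in the protocol and 24 weeks in the sample labels. Each RNA was hybridized to 1 Affymetrix mouse array, and the replicates carry numbers only: mice of a litter shared a cage and a treatment, the litter of each sample is not given, and the p-values measure the spread between these 9 samples.

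Cyclooxygenases convert arachidonic acid, which phospholipases free from membranes, into prostaglandin H, and terminal synthases then make prostaglandin D (Ptgds), prostaglandin E (Ptges), prostacyclin (Ptgis) or thromboxane (Tbxas1) from it. In the other route, arachidonate 5-lipoxygenase (Alox5), helped by its activating protein (Alox5ap), makes an unstable leukotriene, which a hydrolase (Lta4h) or a glutathione-coupling synthase (Ltc4s) completes. In liver, resident macrophages (Kupffer cells) and the cells of the sinusoids and vessels are known sources of these mediators, while hepatocytes take them up and degrade them.

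The values are log2 expression values after RMA. The hepatocyte list (Alb, Ttr, Apoa1, Cps1 and Hnf4a) averaged 13.81 to 13.87 in the arrays, and all 5 genes were well above 6. Of the other cells, the lists of 5 neutrophil, 6 mast cell, 4 platelet and 4 T and B cell genes held no gene with a mean of 6 or over, and their defining markers S100a8, Cpa3, Pf4 and Cd3e were dim. Amoxicillin replicate 1 and tylosin replicate 2 stood apart in the 8 intestinal mucosa genes, with list means of 7.06 and 6.98 against 5.06 to 5.81 in the other arrays, and in the 6 smooth muscle genes, with 6.16 and 6.49 against 4.25 to 4.62. Tylosin replicate 3 had the highest mean of the 8 Kupffer cell and macrophage genes (9.34, against 8.18 to 9.09), although Clec4f, which defines Kupffer cells, was lowest there (7.50, against 9.20 to 9.66). The 3-prime excess of the Actb control probe sets, which grows as RNA degrades, ranged from 1.29 to 1.40 in the controls, from 1.39 to 1.57 in the amoxicillin group and from 1.21 to 1.73 in the tylosin group. In liver as a whole, fewer cells of a type and less RNA per cell cannot be told apart.

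Ptgis, the prostacyclin synthase of vessel walls, was the 1 gene of the 9 called in any comparison, and it was lower with tylosin. No gene of the 9 was called with amoxicillin or between the antibiotics. Alox5ap was lower in all 3 amoxicillin arrays than in all others, without reaching the call. In Ptgds 1 amoxicillin array stood apart from the other 2, and Tbxas1 did not separate the groups but varied with the mean of a macrophage list. A gene was called at an unadjusted P under 0.01 with an absolute log2 fold change over 0.5, the thresholds of the study's methods, in a limma fit to all 9 arrays and all 45037 probe sets, and adjusted p-values are Benjamini-Hochberg values over all of these.

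Of the 18193 genes, 1.28% were called in either direction with amoxicillin, 1.45% with tylosin and 0.11% between the antibiotics. The share called lower with tylosin was 0.44%. With amoxicillin, 8 of the 9 genes had a log2 fold change under 0, with a median of -0.06, and with tylosin 8 of 9 with a median of -0.02, beside medians over all genes of -0.03 and -0.01. With each array centred on its median, 3 of the former and 4 of the latter turned above 0, all of them within 0.05 of it. Of all dim genes, the class of 6 of the 9, 69.2% had a log2 fold change under 0 with amoxicillin and 66.9% with tylosin. Of genes with a mean of 6 or over these shares were 35.7% and 33.9%. These comparisons share the 3 control arrays. After adjustment limma called 0 of the 45037 probe sets in each of the 3 comparisons, with 6657 (amoxicillin), 6722 (tylosin) and 1335 (between antibiotics) under an unadjusted p of 0.05. Of the 9 genes, 1 in each comparison was under that p, where 15.5%, 16.6% and 3.13% of all genes lay.

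**Figure D1:**
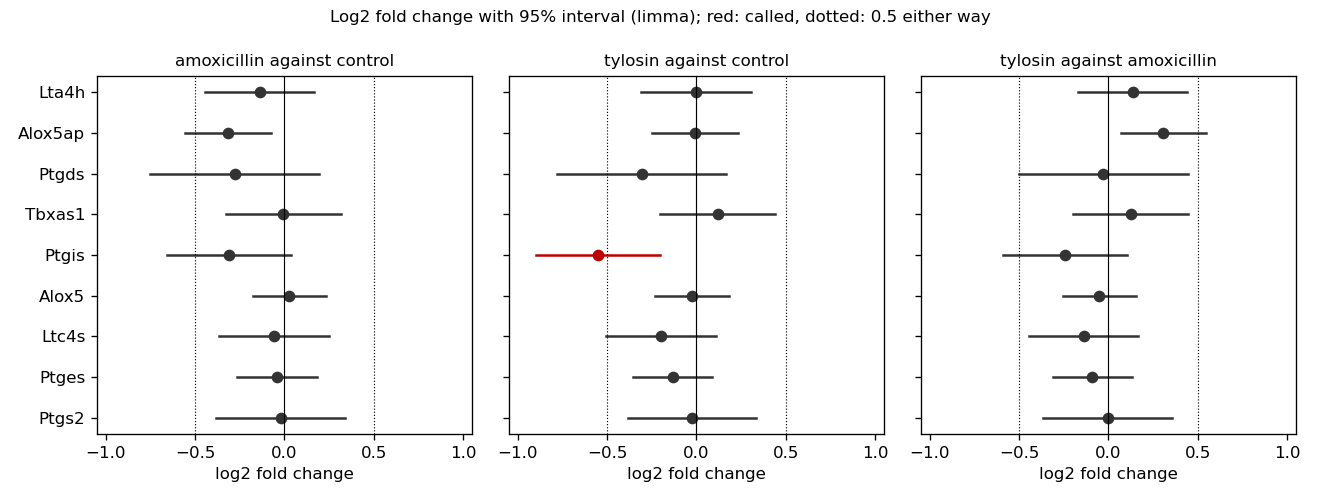
Log2 fold change of the 9 measured genes in each comparison, with points for the limma estimate, lines for its 95% interval, dotted lines at 0.5 either way and called genes in red. The only red point is Ptgis with tylosin, at -0.55, and the interval of Alox5ap with amoxicillin lies below 0.

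The cyclooxygenase route held the single call. Ptgis stood at 5.64, 5.50 and 5.22 in control replicates 1 to 3, 4.99, 5.46 and 4.97 with amoxicillin and 4.91, 5.06 and 4.72 with tylosin. All 3 tylosin arrays lay below all 3 control arrays, while amoxicillin replicate 2 lay among the controls. Control, amoxicillin and tylosin means were 5.45 ± 0.21, 5.14 ± 0.28 and 4.90 ± 0.17 (SD, n = 3 each), and neighbouring groups in this order overlapped. Its log2 fold change with tylosin was -0.55 (standard error 0.16, 95% interval -0.90 to -0.21, adjusted p = 0.21 from limma). With amoxicillin it was -0.31 (standard error 0.16, 95% interval -0.66 to 0.04, adjusted p = 0.38 from limma), and tylosin against amoxicillin was at -0.24 (95% interval -0.59 to 0.10). Ptgis has 1 probe set, and it was under 6 in all 9 arrays.

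The call of Ptgis with tylosin was lost when control replicate 1 was left out (-0.46), as it was for control replicate 2 (-0.53), for tylosin replicate 1 (-0.56) and for tylosin replicate 3 (-0.46), and also with arrays weighted by their quality (-0.51), with an adjusted p under 0.05 or with a log2 fold change over 1 as the threshold, but its value stayed under 0 in each of the 20 alternative settings that gave one. An exact two-sided permutation test of its tylosin and control values gave p = 0.10, the smallest that 3 against 3 arrays allow. Dim genes as a class lay slightly lower in both antibiotic groups: their median log2 fold change was -0.08 with amoxicillin and -0.07 with tylosin, against 0.06 and 0.07 for genes with a mean of 6 or over. Of 10669 dim genes, 40 (0.375%) had a tylosin value at or below that of Ptgis, and 823 (7.71%) had an amoxicillin value at or below its value there.

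**Figure D2:**
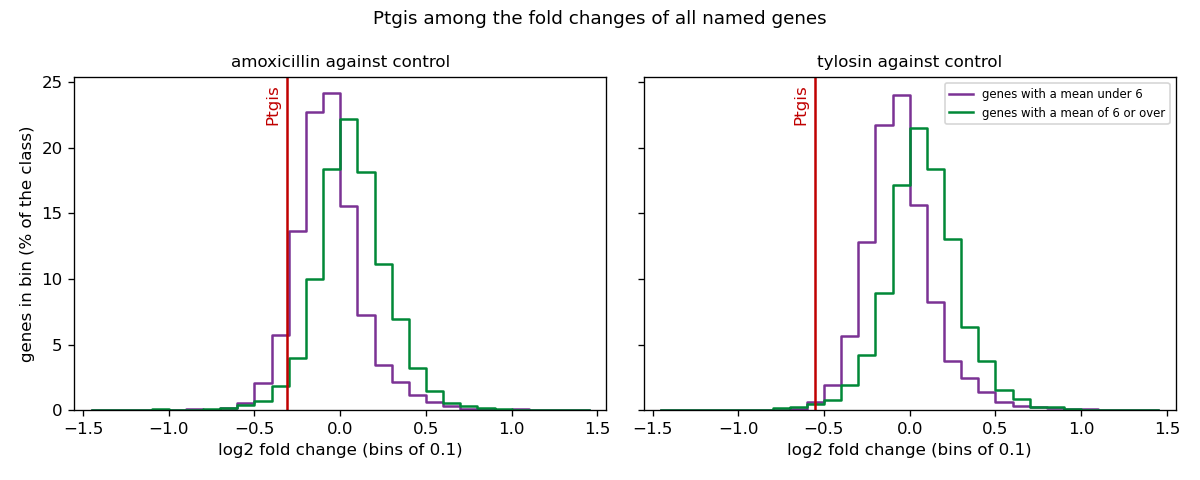
Share of genes in each bin of log2 fold change, for 10669 genes with a mean under 6 and 7524 with a mean of 6 or over, with the value of Ptgis as a red line; values beyond 1.5 are drawn in the outermost bins. The dim genes lie to the left of the others with both antibiotics, and Ptgis lies in the left tail with tylosin (-0.55) and nearer the bulk with amoxicillin (-0.31).

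Prostacyclin synthase is known from endothelium and smooth muscle, and the lists of these cells did not fall with it. The 6 endothelial genes averaged 6.52 to 6.62 in controls, 6.66 to 6.83 in the amoxicillin group and 6.65 to 6.90 in the tylosin group, although Pecam1, which defines endothelium, was dim. The 6 smooth muscle genes averaged 4.26 to 4.62, 4.25 to 6.16 and 4.48 to 6.49, with Myh11 dim. The 6 mast cell genes, none with a mean of 6 or over, did move with it, averaging 3.73 to 3.87 in controls, 3.60 to 3.71 in the amoxicillin group and 3.51 to 3.67 in the tylosin group, with Cpa3 at most 3.27. Over the 9 arrays the Pearson r of Ptgis was 0.88 with the mast cell list and -0.56 with the endothelial list. These were its highest and lowest r with any marker list, and the arrays share their probes and normalization. The part of any of these cell types in the lower Ptgis was not tested.

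Ptgds, a synthase of prostaglandin D that also carries lipophilic molecules, stood at 6.26, 6.52 and 6.26 in control replicates 1 to 3, 6.68, 5.85 and 5.67 with amoxicillin and 6.10, 6.02 and 6.00 with tylosin. The tylosin arrays lay together below the controls, and the amoxicillin arrays held both the highest value (replicate 1) and the lowest values (replicates 2 and 3) of the 9. The group means were 6.35 ± 0.15, 6.07 ± 0.54 and 6.04 ± 0.05 (SD, n = 3 each). On the log2 scale Ptgds differed from control by -0.28 with amoxicillin (standard error 0.21, adjusted p = 0.55 from limma) and -0.31 with tylosin (standard error 0.21, adjusted p = 0.52 from limma). Without amoxicillin replicate 1, the value with amoxicillin was -0.59 and Ptgds met the call (adjusted p = 0.46 from limma), and tylosin against amoxicillin turned from -0.03 to 0.28. The second probe set of Ptgds, at 2.90 to 4.08, was also highest in amoxicillin replicate 1, and its log2 fold changes were 0.04 with amoxicillin and -0.03 with tylosin.

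Amoxicillin replicate 1 is also 1 of the 2 arrays with high intestinal transcripts, but tylosin replicate 2, with a like list mean, had no high Ptgds (6.02). Over the 9 arrays Ptgds and the mean of the 8 intestinal genes had a Pearson r of 0.40, and of -0.02 without amoxicillin replicate 1. Vil1, which defines this list, was dim but stood at 5.53 in amoxicillin replicate 1 and 5.05 in tylosin replicate 2, against 3.36 to 3.66 elsewhere. Reg3b (10.18 and 9.72, and 7.75 in tylosin replicate 1), Zg16 (8.71 and 8.41) and Muc2 (6.14 and 5.91) were also high in these 2 arrays. Lgals4, Fabp2, Cdx1 and Cdx2 did not stand apart in both. Both Cdx1 and Cdx2, transcription factors of the intestinal epithelium, were dim in all arrays. The part of intestinal tissue in the value of Ptgds was not tested. The genes whose pattern was most like that of Ptgds, among 7523 genes with a mean of 6 or over, were Rhbdd1 (r = 0.95), Tinf2 (0.90) and Dctn2 (0.87).

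**Figure D3:**
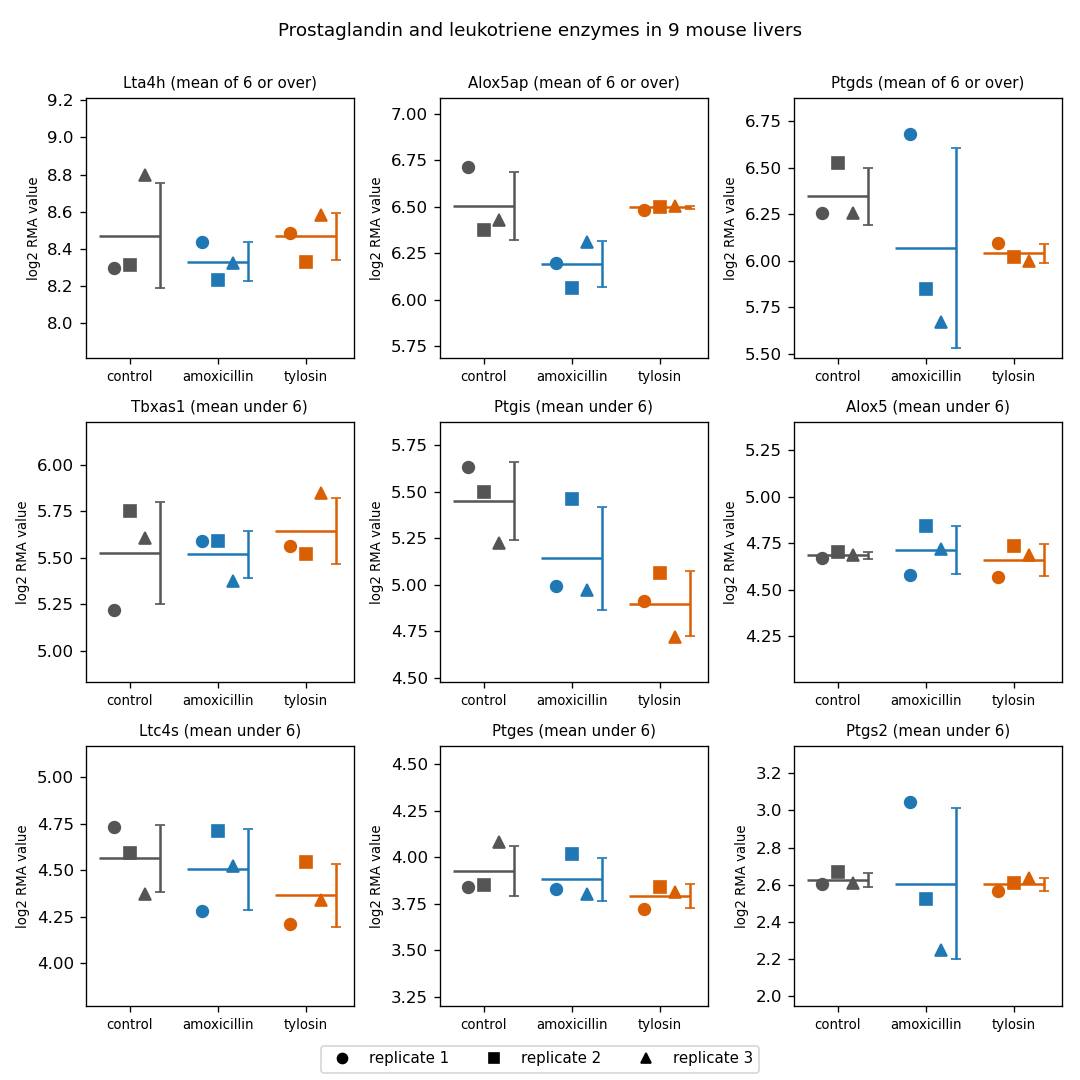
Log2 value of each measured gene in the 9 arrays, with shapes for the replicate number, horizontal lines for the group mean and bars for the SD (n = 3); every panel spans 1.4 log2 units. The 3 tylosin points of Ptgis (4.72 to 5.06) lie below the 3 control points (5.22 to 5.64), the amoxicillin points of Alox5ap (6.06 to 6.31) lie below all others, and amoxicillin replicate 1 stands high in Ptgds (6.68) and Ptgs2 (3.05).

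Tbxas1, the thromboxane synthase of platelets and macrophages, read 5.22, 5.75 and 5.61 in control replicates 1 to 3, 5.59, 5.59 and 5.37 with amoxicillin and 5.56, 5.52 and 5.85 with tylosin. The groups overlapped, and the extremes were control replicate 1 and tylosin replicate 3. Its log2 fold change was -0.01 with amoxicillin (95% interval -0.33 to 0.32) and 0.12 with tylosin (95% interval -0.20 to 0.44), the latter at -0.04 without control replicate 1 and 0.02 without tylosin replicate 3. These arrays were also the lowest and the highest in the 8 Kupffer cell and macrophage genes (8.18 and 9.34), all of which had a mean of 6 or over. Across the 9 arrays the Pearson r of Tbxas1 with the mean of these genes was 0.86 (Spearman's rho 0.81), and 0.78 without tylosin replicate 3. Of the 8 genes, 6 had an r with Tbxas1 above 0, from 0.61 (Cd68) to 0.89 (Csf1r, the receptor that sustains macrophages), and the Kupffer cell markers Clec4f (-0.39) and Vsig4 (-0.13) had one below 0. Both markers were lowest in tylosin replicate 3 (7.50 and 9.40), where Tbxas1 was highest, and without that array all 8 were above 0, with Clec4f at 0.79 and Vsig4 at 0.81. The scavenger receptor Marco had the widest range of the list, from 5.81 to 10.95. The macrophage list itself overlapped between the groups, at 8.18 to 8.96 in controls, 8.20 to 9.09 in the amoxicillin group and 8.48 to 9.34 in the tylosin group, while the 4 platelet genes stayed between 4.57 and 5.01 with Pf4 dim in every array. The part of macrophages in the values of Tbxas1 was not tested.

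**Figure D4:**
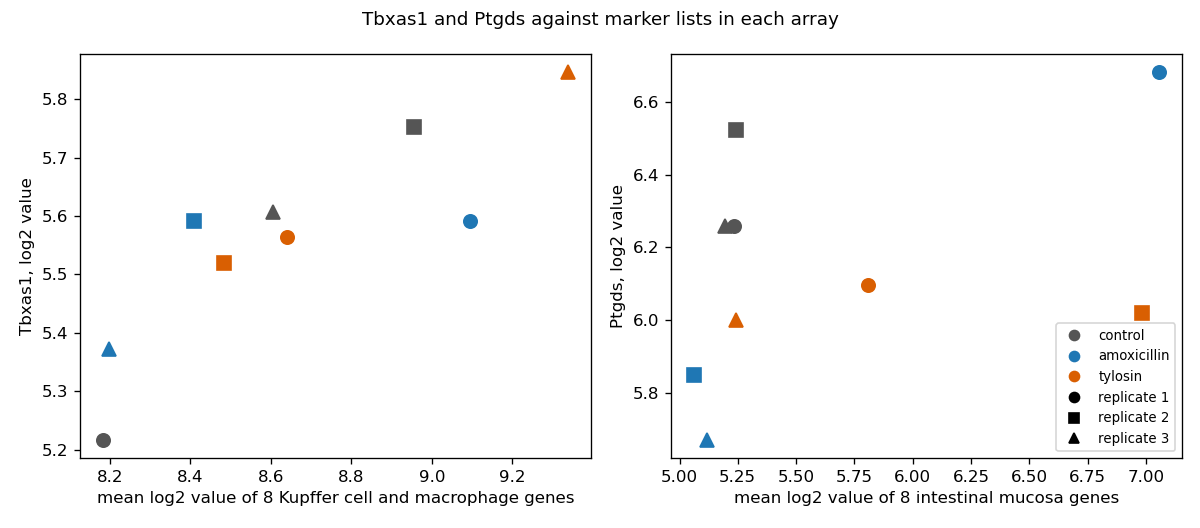
Tbxas1 against the mean log2 value of 8 Kupffer cell and macrophage genes (left) and Ptgds against that of 8 intestinal mucosa genes (right), with 1 point for each array coloured by group. Tbxas1 rises with the mean of the list from control replicate 1 (5.22) to tylosin replicate 3 (5.85), although Clec4f and Vsig4 of that list were lowest in the latter array, whereas of the 2 arrays with high intestinal genes only amoxicillin replicate 1 is high in Ptgds.

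RefSeq promoter sequences (GRCm38.p6) were found for 8 of the 10 genes, and those of Tbxas1, Ptgds and Lta4h are shown because these genes carry the pattern with the macrophage list, the spread within the amoxicillin group and a signal well above the dim limit. Each is the 250 bases before the transcription start, 5′ to 3′ on the gene's strand, with matches to any of 4 motifs on either strand in capitals.
Tbxas1: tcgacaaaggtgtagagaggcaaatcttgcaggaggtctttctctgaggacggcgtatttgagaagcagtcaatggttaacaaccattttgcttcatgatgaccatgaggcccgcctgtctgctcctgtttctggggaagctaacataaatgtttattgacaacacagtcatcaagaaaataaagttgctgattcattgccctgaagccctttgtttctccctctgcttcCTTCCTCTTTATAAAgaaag
Ptgds: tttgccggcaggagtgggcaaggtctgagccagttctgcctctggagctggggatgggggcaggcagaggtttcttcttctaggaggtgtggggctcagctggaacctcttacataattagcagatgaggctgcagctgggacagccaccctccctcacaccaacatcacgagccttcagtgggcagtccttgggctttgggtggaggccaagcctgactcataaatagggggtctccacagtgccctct
Lta4h: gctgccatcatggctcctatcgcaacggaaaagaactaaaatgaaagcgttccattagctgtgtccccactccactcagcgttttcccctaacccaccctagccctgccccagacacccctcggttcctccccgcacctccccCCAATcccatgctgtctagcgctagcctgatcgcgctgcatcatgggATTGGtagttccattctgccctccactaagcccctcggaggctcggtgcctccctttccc
These stretches lie at chr6:38918736-38918985 (plus strand), chr2:25469750-25469999 (minus strand) and chr10:93453146-93453395 (plus strand). The motifs searched were the TATA box, spelled TATAAA. A further one was the CCAAT box. The GC box was spelled GGGCGG. The last was a core of ETS factor sites, bound by factors such as the myeloid PU.1 protein, and was spelled GAGGAAG.

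Tbxas1 held TATAAA, which reads on both strands there, from 13 to 6 bases before the start, and GAGGAAG on the opposite strand from 20 to 14 bases before it, directly beside the other without overlap. Of 32851 promoters of the same length, 12.4% held TATAAA and 10.6% held GAGGAAG. Of the 8 promoters here only Tbxas1 held TATAAA, and Ptgs1 was the other with GAGGAAG. The Lta4h promoter held CCAAT once on each strand, a motif of 33.8% of promoters, and 11 CG pairs, and that of Ptgds held 2 CG pairs and none of the 4 motifs. GGGCGG, in 32.7% of promoters, was found in Ptgs2, Ptges and Alox5, and the median over all promoters was 6 CG pairs. A match is a description of these letters only.

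Ptgs2, the inducible cyclooxygenase, was below the array median in every liver. It was 2.60, 2.67 and 2.61 in control replicates 1 to 3, 3.05, 2.52 and 2.25 with amoxicillin and 2.56, 2.61 and 2.63 with tylosin, and the array medians were 3.96 to 4.06. No group stood apart, and the spread within the amoxicillin group (SD 0.40, n = 3) exceeded every difference between group means. Its second probe set was at 2.21 to 2.52. Its log2 fold change was -0.02 with both amoxicillin (95% interval -0.38 to 0.34) and tylosin (95% interval -0.39 to 0.34), so a change of this transcript was not detectable at these signals.

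Ptges, the inducible synthase of prostaglandin E, was likewise dim, ranging from 3.84 to 4.08 in controls, from 3.80 to 4.02 in the amoxicillin group and from 3.72 to 3.84 in the tylosin group. Its log2 fold change was -0.04 with amoxicillin (95% interval -0.26 to 0.18) and -0.13 with tylosin (95% interval -0.35 to 0.09). Of its other probe sets, 1 lay lower in the tylosin arrays (3.06 to 3.10) than in the controls (3.27 to 3.28) and the amoxicillin arrays (3.25 to 3.59). Its log2 fold changes of -0.19 and -0.31 did not meet the call. Among all probe sets, 8.87% lay wholly lower with tylosin than in controls, and 2.83% wholly lower than with amoxicillin. The remaining probe set of Ptges, at 3.18 to 3.72, did not separate the groups.

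In the lipoxygenase route no gene was called, and the nearest was Alox5ap, the membrane protein that hands arachidonic acid to 5-lipoxygenase. It read 6.71, 6.38 and 6.43 in control replicates 1 to 3, 6.20, 6.06 and 6.31 with amoxicillin and 6.49, 6.50 and 6.51 with tylosin. All 3 amoxicillin arrays lay below the 6 others, and the tylosin arrays lay within the control range. Its log2 fold change with amoxicillin was -0.32 (standard error 0.11, 95% interval -0.55 to -0.08, adjusted p = 0.26 from limma), under the fold change of the call. With tylosin it was -0.01 (95% interval -0.25 to 0.23), and tylosin lay 0.31 above amoxicillin (95% interval 0.07 to 0.55, adjusted p = 1 from limma). Exact two-sided permutation tests gave p = 0.10 for amoxicillin against control and for tylosin against amoxicillin, the smallest possible here.

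Groups that did not overlap, with the antibiotic lower, were found for 11.4% of all genes with amoxicillin and for 9.15% with tylosin, and in the 9 genes for 1 (Alox5ap) and 2 (Ptgis and Ptgds). Between the antibiotics, 3.58% of genes lay wholly higher with tylosin, among them Alox5ap. The macrophage list, whose cells use Alox5ap, did not separate the groups, and its Pearson r with Alox5ap over the 9 arrays was -0.11. The part of macrophages in the values of Alox5ap was not tested. Among 7523 genes with a mean of 6 or over, those most like Alox5ap were 0610012G03Rik (r = 0.92), Myd88, an adaptor of toll-like receptors (0.91), and Sult2a2, a sulfotransferase (0.91). Within the groups their r was 0.93, 0.76 and 0.77. The highest r found in this way for each of the 9 genes ranged from 0.86 (Ltc4s) to 0.95 (Ptgds). The log2 fold change of Alox5ap with amoxicillin ranged from -0.38 to -0.21 when any 1 array was left out. It was -0.41 with quantile normalization, and no setting met the call.

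Alox5 itself had the smallest SD over the 9 arrays of the 9 brightest probe sets, ranging from 4.67 to 4.71 in controls, from 4.58 to 4.84 in the amoxicillin group and from 4.57 to 4.74 in the tylosin group. The log2 fold changes were 0.03 (95% interval -0.18 to 0.23) and -0.02 (95% interval -0.23 to 0.18). Its 1 probe set was dim in all arrays.

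Ltc4s, which couples the leukotriene to glutathione, was 4.73, 4.59 and 4.37 in control replicates 1 to 3, 4.28, 4.71 and 4.52 with amoxicillin and 4.21, 4.54 and 4.34 with tylosin. The groups overlapped, and the log2 fold change was -0.06 with amoxicillin (95% interval -0.37 to 0.25) and -0.20 with tylosin (95% interval -0.51 to 0.11). Over the 9 arrays it varied with Ptgis (Pearson r = 0.79) and with Alox5 (0.75), all 3 being dim. These were its highest r with the other measured genes, and its lowest was -0.68, with Lta4h. Among all pairs of the 9 genes the highest r was 0.87, for Ptgds and Ptgs2.

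Lta4h, the hydrolase that makes leukotriene B and also acts as a peptidase, was well above the dim limit in every array. It was 8.30, 8.31 and 8.80 in control replicates 1 to 3, 8.44, 8.23 and 8.33 with amoxicillin and 8.49, 8.33 and 8.58 with tylosin. The groups overlapped, and control replicate 3 was highest. Its difference from control on the log2 scale was -0.14 with amoxicillin (95% interval -0.44 to 0.17) and 0.00 with tylosin (95% interval -0.31 to 0.30), and 0.02 and 0.16 without control replicate 3. Its other probe sets were dim, at 2.92 to 3.59 and 3.51 to 4.14, and the latter was at -0.33 with amoxicillin (adjusted p = 0.29 from limma) without a call.

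Around these enzymes, a list of 53 further genes of the pathway was examined, of which 46 were measured and 14 had a mean of 6 or over. With either antibiotic, 0 of 46 were called against control, and 1 was called between the antibiotics, where 0.0715% of all genes were called higher with tylosin. The median log2 fold change of the 46 was -0.02 with amoxicillin and -0.04 with tylosin, close to the medians of all genes given above. Under an unadjusted p of 0.05 were 8 genes with amoxicillin and 7 with tylosin, where limma placed 15.5% and 16.6% of all genes there.

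The called gene was Pla2g12a, a secreted phospholipase A of the group that frees fatty acids from phospholipids. It was 7.16, 7.04 and 6.99 in control replicates 1 to 3, 6.86, 6.70 and 6.90 with amoxicillin and 7.39, 7.21 and 7.54 with tylosin. The 3 groups did not overlap, with amoxicillin lowest and tylosin highest. Of all genes, 3.58% lay wholly higher with tylosin than with amoxicillin. Against control, 11.4% lay wholly lower with amoxicillin and 8.21% wholly higher with tylosin. The share of genes with all 3 groups apart was not counted. Pla2g12a was at 0.56 for tylosin against amoxicillin (standard error 0.11, 95% interval 0.32 to 0.79, adjusted p = 1 from limma), and the call was lost without tylosin replicate 3 (0.48). The log2 fold changes against control, -0.24 with amoxicillin and 0.32 with tylosin, did not meet the call.

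All 13 receptors measured were dim. Tbxa2r, the thromboxane receptor, was singled out after its values were seen: it was 6.27, 5.99 and 6.11 in control replicates 1 to 3, 5.86, 5.94 and 5.87 with amoxicillin and 5.61, 5.76 and 5.71 with tylosin. The 3 groups did not overlap, and tylosin was lowest, as for Ptgis, whose neighbouring groups overlapped. Of dim genes, 12.4% lay wholly below control with tylosin and 15% with amoxicillin. The log2 fold change of Tbxa2r with tylosin was -0.43 (standard error 0.10, 95% interval -0.64 to -0.22, adjusted p = 0.18 from limma), which missed the fold change of the call. It met the call with quantile normalization (-0.52). With amoxicillin it was -0.23 (adjusted p = 0.31 from limma). Fpr2, a receptor that also binds lipoxins, had the highest mean of the receptors and ranged from 5.09 to 6.74 in 8 arrays but was 8.19 in tylosin replicate 3, the array with the highest macrophage list. Its log2 fold change with tylosin was 0.77 with a 95% interval of -0.66 to 2.20, and -0.08 without tylosin replicate 3.

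The brightest genes of the other roles were not called in any comparison. Among phospholipases this was Pla2g12b (9.77 to 10.02 over the arrays), and among synthases Cbr1, a carbonyl reductase that can reduce prostaglandin E (9.19 to 9.83). Of the genes listed here under breakdown it was Akr1c6 (12.48 to 13.14), whose part in breakdown was not examined, followed by Hpgd (9.95 to 11.04). Among transporters it was Slco2a1, the prostaglandin carrier (8.57 to 8.98). Of the 5 other lipoxygenases all were dim, Aloxe3 having the highest mean (4.78 to 5.36), with log2 fold changes of -0.37 with amoxicillin and -0.32 with tylosin. The efflux pumps Abcc4 and Abcc1, which export prostaglandins and leukotriene C, were picked out after their values were seen. Both were dim and lay at 0.63 (95% interval 0.06 to 1.21) and 0.68 (95% interval 0.01 to 1.34) with tylosin, without a call, and Abcc1 was highest in tylosin replicate 3 (5.83, against 4.06 to 4.71). Without that array Abcc4 was at 0.42 and Abcc1 at 0.24, while without tylosin replicate 2 Abcc1 was at 1.0 and met the call.

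**Figure D5:**
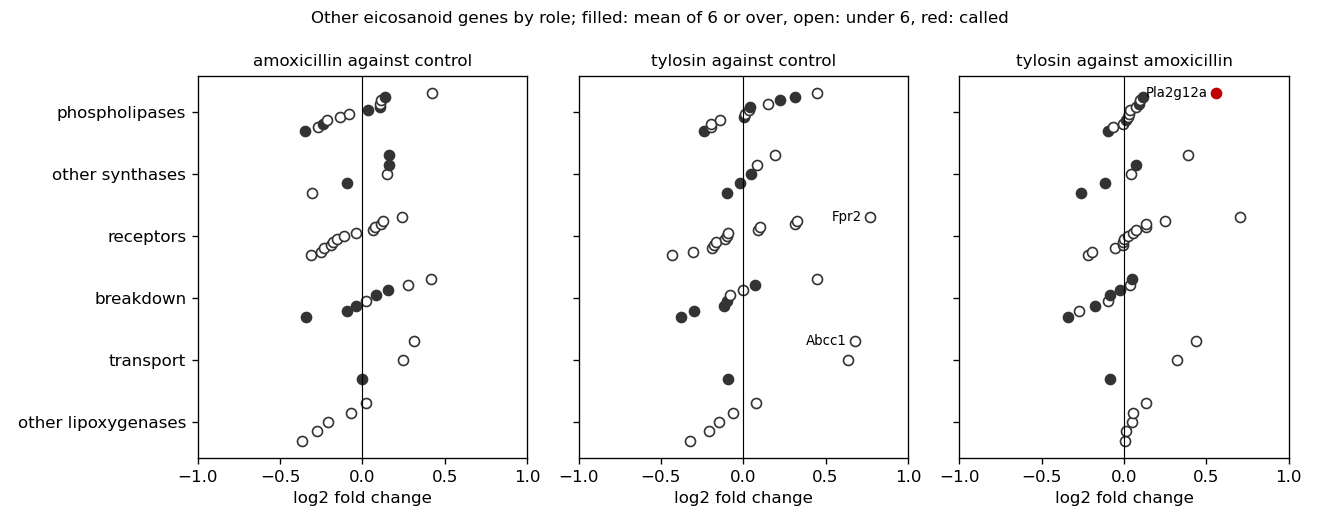
Log2 fold change of the 46 other eicosanoid genes by role in each comparison, with filled points for a mean of 6 or over, open points for dim genes and red for called genes. Only Pla2g12a, at 0.56 between the antibiotics, is red, and Fpr2 (0.77) and Abcc1 (0.68) are the farthest to the right with tylosin, at -0.08 and 0.24 without tylosin replicate 3.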

How the data were processed

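Liver RNA of 9 mice, 3 for each of control, amoxicillin and tylosin, was hybridized to Affymetrix arrays, 1 per sample. Log2 values per probe set were deposited, made by the authors with the RMA method of affy (version: not given in the sources used here). Of 45101 probe sets, 64 manufacturer's controls were left out, and 34958 carried 1 gene symbol. A single limma model (3.58.1, R 4.3.3) covered all arrays and 45037 probe sets. The fit was tested on simulated data. Named are the 10 genes and other pathway genes that were called or brightest in their role. Tbxa2r, Abcc4, Abcc1, Dpep1 and Hpgd were added after their values were seen. Also named are the 3 most similar genes of each non-dim member with non-overlapping groups, and markers. Members and lists were chosen with earlier results of these data known. Promoters were read from RefSeq. Figures used matplotlib 3.10.9. Alternatives were other thresholds, scalings, filters, probe set summaries, weights and variances, a replicate block, and arrays left out. The number of arrays limits the precision.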

Additional observations from a re-analysis of the deposited data

Results flagged for a closer look

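Pla2g12a, a secreted phospholipase, was called between the antibiotics, at a log2 fold change of 0.56 for tylosin against amoxicillin (adjusted p = 1 from limma). It was higher in 3 of 3 tylosin arrays than in every amoxicillin array, as 3.58% of all genes were. It was named here because the 2 treatments lay on opposite sides of the control arrays, in a comparison where 0.11% of all genes were called.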

How the results depend on the processing

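Of 549 values of the 9 genes under the alternatives, 7 lost a call, 2 gained one and the others kept their side of it. The sign changed in 38, all from values within 0.14 of 0, and in 37 of these no unadjusted p was under 0.05; median centring alone turned 7, so that no direction is read from the values of Tbxas1, Ptges and Ptgs2 with amoxicillin or of Alox5, Alox5ap, Lta4h and Ptgs2 with tylosin. The remaining value was Ptgds for tylosin against amoxicillin, at 0.28 without amoxicillin replicate 1 and -0.23 to 0.28 over the amoxicillin arrays left out in turn. The count called lower with tylosin, which is Ptgis alone, was 0 with an adjusted p under 0.05, with a log2 fold change over 1, with the filter on dim probe sets (which kept 3 of the 9 genes) and with array weights, and 0 to 1 when any 1 array was left out; the same holds for the count in either direction. The count called lower with amoxicillin, and in either direction, was 0 to 1 when any 1 array was left out, and 1, Ptgds at -0.59, when amoxicillin replicate 1 and tylosin replicate 2 were left out together. Of the other pathway genes with tylosin against control, 2 were called with quantile normalization (Tbxa2r at -0.52 and Dpep1 at 0.50). With the mean of all probe sets 1 was called, Hpgd at -0.51, although its brightest probe set was at 0.07. Without both arrays 1 was called (Abcc1), and 0 to 1 without any 1 array. These genes were picked out by their values. Between the antibiotics the count of other pathway genes called was 0 with an adjusted p or a log2 fold change over 1, and 0 to 1 without any 1 array. The causes were not tested. With the replicate number as a block, Ptgis with tylosin stayed called at -0.55 (adjusted p = 0.19 from limma), and the block changed no other call of these genes. The numbers carry no known pairing: 2 of 9 same-numbered pairs showed a residual correlation over 0.1, and 3 of 9 arrays lay closest to one of their own number. Median centring moved the median of all genes by 0.05 with either antibiotic and left Ptgis at -0.50 with tylosin, still called, and with quantile normalization it was at -0.60. Of the genes called with tylosin, 184 were higher and 80 lower, against 306 and 42 with median centring and 107 and 125 with quantile normalization. With the mean of all probe sets in place of the brightest, Lta4h, Ptgds and Ptges averaged 5.22, 4.78 and 3.51. Dim signals limit what can be seen of 6 of the 9 genes.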
